A study of Mus musculus with 8 samples.

Results

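The glucocorticoid receptor and its best known targets were followed through birth in mouse lung as 9 genes. These were *Nr3c1*, which encodes the receptor, *Hsd11b1*, which encodes the enzyme that regenerates active corticosterone inside cells, and the targets *Fkbp5*, *Tsc22d3*, *Zbtb16*, *Sgk1*, *Klf9*, *Per1* and *Cdkn1a*. They were taken by name from the 25965 genes measured, and all 9 passed the filter on low values that left 15627 genes for testing. Total RNA of whole lung was sequenced from *Wfdc2* +/+ mice and from *Wfdc2* GFP/GFP mice, which carry the targeted allele on both chromosomes and so have a GFP cassette instead of the first coding part of the gene in every cell, at embryonic stage E18.5 and postnatal stage P1.5. Each of the 4 groups held 2 animals, replicates 1 and 2, and none received an agent. The allele came from TT2 embryonic stem cells and acts in the whole body, so an effect in the lung cannot be told apart from one through another organ.

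Glucocorticoids enter the cell and bind the receptor, which leaves its HSP90 chaperone complex, moves to the nucleus and binds DNA or other factors there. Corticosterone can be restored from its inactive 11-keto form by 11β-hydroxysteroid dehydrogenase type 1, the product of *Hsd11b1*. The late fetal surge of the hormone matures the lung for air breathing by thinning the mesenchyme between airspaces and by promoting surfactant and the clearance of fluid. Among the targets, *Fkbp5* encodes a co-chaperone that lowers the affinity of the receptor for its ligand, *Tsc22d3* the anti-inflammatory leucine zipper protein GILZ, *Zbtb16* the transcriptional repressor PLZF, *Sgk1* a kinase that keeps epithelial sodium channels at the cell surface, *Klf9* a Krüppel-like repressor, *Per1* a core repressor of the circadian clock, and *Cdkn1a* the cyclin-dependent kinase inhibitor p21.

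The totals behind the libraries ran from 19457647 to 37209333 reads, so that 3 reads, taken as the limit of detection, corresponded to 0.0806 to 0.154 RPM, the reads of a gene scaled to a common library total. The targeted gene had between 8038 and 32845 reads in +/+ libraries and between 0 and 12 in GFP/GFP libraries. Replicate 1 of each group carried 4121 to 90980 reads of *Xist* and at most 3 of *Ddx3y*, replicate 2 at most 13 of *Xist* and 972 to 2175 of *Ddx3y*, so each group held a library of either sex pattern. The label of lung held in all libraries, where 5 markers of alveolar type II cells summed to 8847 to 65478 RPM. Several libraries stood apart. E18.5 GFP/GFP replicate 1 had 8847 RPM of the type II markers, against 17644 to 22434 RPM in the other E18.5 libraries. Its 6 airway markers summed to 679 RPM, against 2115 to 2793 RPM. It was the highest library for 35.0% of all genes and the lowest for 22.8%. At P1.5 the type II sum was 27919 to 65478 RPM. The median of the tested genes, in log2 RPKM (RPM per kilobase), was −0.96 and −0.22 in replicates 1 and 2 of P1.5 +/+, −0.95 and −0.63 in P1.5 GFP/GFP, and between −0.33 and 0.02 at E18.5. The summed level of 8 mesenchymal markers was 4189 to 6140 RPM at E18.5, 1161 and 6672 RPM in replicates 1 and 2 of P1.5 +/+, and 1617 and 2262 RPM in P1.5 GFP/GFP, with none of the 8 at 0. The summed level of 7 neutrophil markers was 38.6 to 68.2 RPM at E18.5 and 470.0 to 1644 RPM at P1.5, although *Ly6g*, *Mpo* or *Elane* had no reads in 6 of the 8 libraries. The neutrophil sum was higher in all 4 P1.5 libraries, and the mesenchymal sum was below the E18.5 range in 3 of them and above it in P1.5 +/+ replicate 2. The part of these sums and of E18.5 GFP/GFP replicate 1 in the results below was not tested. In RNA of a whole organ, fewer cells of a type and less RNA per cell cannot be told apart.

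The DNA just upstream of annotated starts of the targets is shown because the receptor acts through a short palindrome. Promoters from RefSeq (GRCm38.p6, the mm10 build) were at hand for 7 of the 9 members, 16 promoters in all. The letters GNACA and TGTNC, with 3 bases between them, are a form of the palindrome. They occurred on either strand in the 250 bases before the start in 127 of 32851 mouse promoters (0.387%), and among the members in a promoter of *Sgk1* alone, where the match GAACAGAATGTTC began 188 bases before the start. The E-box CACGTG, the element of the clock factors CLOCK and ARNTL, occurred in 1978 promoters (6.02%), and among the members in those of *Sgk1* (246 bases before the start), *Per1* (166 bases) and *Fkbp5* (169 bases). In *Sgk1* the matches did not overlap. In the sequences, capitals mark these matches. They lie at chr10:21993640-21993889 on the plus strand (*Sgk1*), chr11:69098699-69098947 on the plus strand (*Per1*) and chr17:28486150-28486399 on the minus strand (*Fkbp5*), and overlap no annotated exon. Each stretch lies inside the span of its gene, upstream of an internal start. A match is a description of letters and no evidence of binding.
Sgk1: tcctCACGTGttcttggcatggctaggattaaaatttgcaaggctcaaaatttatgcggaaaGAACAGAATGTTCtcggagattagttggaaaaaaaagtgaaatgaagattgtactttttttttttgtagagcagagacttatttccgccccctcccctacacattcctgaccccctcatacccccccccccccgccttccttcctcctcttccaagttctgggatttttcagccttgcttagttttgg
Per1: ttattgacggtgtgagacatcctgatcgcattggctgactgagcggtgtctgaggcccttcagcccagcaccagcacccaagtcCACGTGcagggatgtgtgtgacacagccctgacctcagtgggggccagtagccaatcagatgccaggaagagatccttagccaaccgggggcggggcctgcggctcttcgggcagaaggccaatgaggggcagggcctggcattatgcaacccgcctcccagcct
Fkbp5: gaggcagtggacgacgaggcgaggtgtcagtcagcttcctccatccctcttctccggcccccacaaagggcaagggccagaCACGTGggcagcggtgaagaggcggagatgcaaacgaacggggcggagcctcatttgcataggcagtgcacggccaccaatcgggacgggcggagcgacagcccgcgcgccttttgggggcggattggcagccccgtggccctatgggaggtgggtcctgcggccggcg

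Across birth, *Hsd11b1* was lower and *Sgk1* higher at P1.5 than at E18.5, and these were the members that passed the test when the change was averaged over the genotypes. Averaged in this way, 2 of the 9 members were called, against 5.14% of all genes (803 of 15627, 403 of them higher and 400 lower). The test was limma's moderated test on the log2 RPKM, fitted to all genes with a spread shared by the 8 libraries, and its p-values were adjusted over all genes by the Benjamini-Hochberg method. The median of all genes changed by −0.32 on the log2 scale across birth, and the changes below are to be read against it. After each library had been centred on its median, 11.8% of all genes were called, 1278 higher and 564 lower, and *Sgk1* was the only member called.

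**Figure D1:**
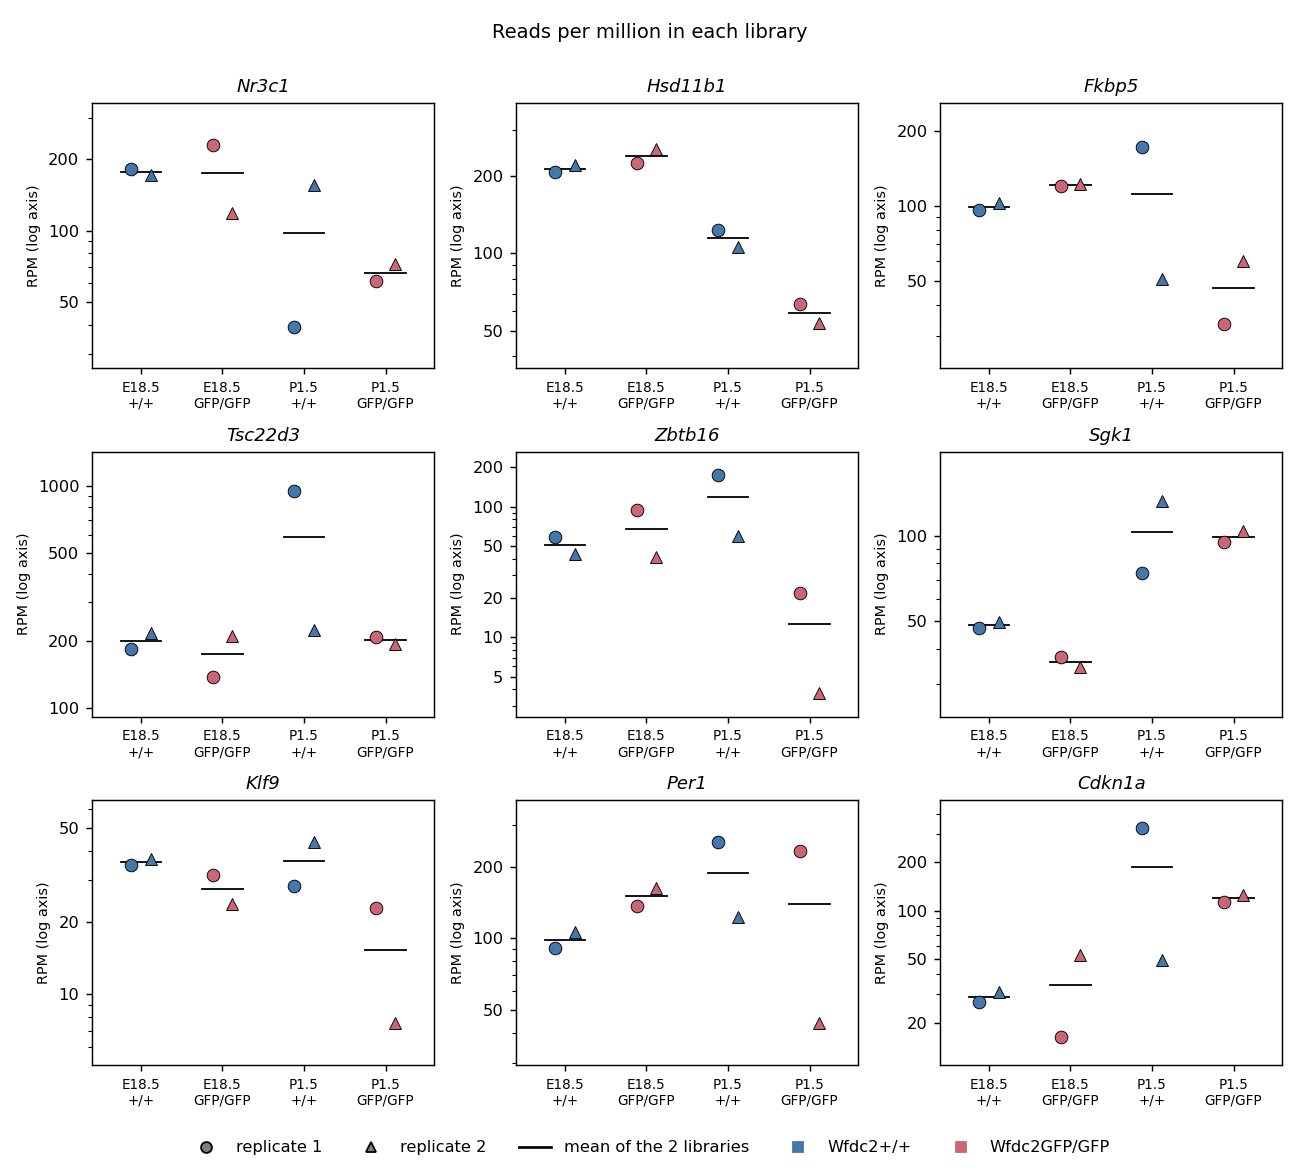
RPM of the 9 members in each of the 8 libraries on a log axis, by stage and genotype, with circles for replicate 1, triangles for replicate 2 and a bar at the mean of the 2 libraries. *Hsd11b1* and *Sgk1* separated the stages, whereas the P1.5 +/+ libraries lay far apart for *Nr3c1*, *Fkbp5*, *Tsc22d3*, *Zbtb16* and *Cdkn1a*.

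*Nr3c1* (chromosome 18, 39410545 to 39491301, mm10, protein coding, minus strand), the receptor itself, had 182 and 171 RPM in the E18.5 +/+ libraries, 231 and 119 RPM in E18.5 GFP/GFP, 39.2 and 155 RPM in P1.5 +/+, and 61.0 and 71.9 RPM in P1.5 GFP/GFP, replicate 1 before replicate 2 here and throughout. Both P1.5 libraries of either genotype lay below both E18.5 libraries of that genotype, but P1.5 +/+ replicate 2 was above E18.5 GFP/GFP replicate 2, so the stages overlapped. The change averaged −1.25 (SE 0.44, adjusted p = 0.0866), and −0.78 after centring (adjusted p = 0.0970). P1.5 +/+ replicate 1 was the lowest of the 8 libraries for *Nr3c1*, as it was for 30.2% of all genes, or 16.0% after centring. It was also the library with the least mesenchymal marker RNA, and a link was not tested. Without that library the change was −0.75 (adjusted p = 0.126), and without the other P1.5 +/+ library it was −1.75 and passed the threshold (adjusted p = 0.00707).

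*Hsd11b1* (chromosome 1, 193221630 to 193264054, protein coding, minus strand) had 206 and 219 RPM in E18.5 +/+, 224 and 254 RPM in E18.5 GFP/GFP, 123 and 106 RPM in P1.5 +/+, and 63.8 and 54.0 RPM in P1.5 GFP/GFP. All 4 P1.5 libraries were below all 4 E18.5 libraries, as in 13.7% of all genes, and the P1.5 GFP/GFP pair was the lowest. *Hsd11b1* fell by 1.46 on the log2 scale (SE 0.20, adjusted p = 0.0171), which is 2.75-fold. An exact two-sided permutation test of 4 against 4 libraries, which restates this separation, gave p = 0.0286, the smallest it can give, for *Hsd11b1* and *Sgk1* among the 9 members, and 0.0571 for *Hsd11b1* after centring. Within GFP/GFP lungs the fall was 2.02 (SE 0.28, adjusted p = 0.0227, 4.07-fold), the only call among the members there on this scale, against 4.55% of all genes (711). Of all genes 1.61% were called higher there and 2.94% lower, or 5.43% and 2.75% after centring. After centring the change of *Hsd11b1* in GFP/GFP was −1.35 and no longer passed (adjusted p = 0.0647), and *Sgk1* was the member called in its place. The call on the deposited scale was kept without E18.5 GFP/GFP replicate 2 or either P1.5 +/+ library. It was lost without any one of the other 5 libraries. Within +/+ lungs the change was −0.90 (SE 0.28, adjusted p = 0.312), and no member was called by limma, against 0.0576% of all genes (9), although *Hsd11b1*, *Sgk1* and *Cdkn1a* were under an unadjusted p of 0.05, as were 11.8% of all genes. The lack of calls among the members did not hold without P1.5 +/+ replicate 2, where calls among all genes rose as well. Centring reduced the average change to −0.99 (adjusted p = 0.0536) and quantile normalization to −1.36 (adjusted p = 0.0239), and on the centred scale P1.5 +/+ replicate 1 lay above one of the E18.5 libraries, GFP/GFP replicate 1. Reads of *Lamb3* and 4930570N18Rik, which lie on the opposite strand within the span of *Hsd11b1*, could add to its values if counting ignored strand. Those of Gm38118 on its own strand could add to them either way.

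*Sgk1* (chromosome 10, 21882184 to 21999903, protein coding, plus strand), with the palindrome before an internal start, had 47.5 and 49.5 RPM in E18.5 +/+, 37.4 and 34.5 RPM in E18.5 GFP/GFP, 73.9 and 133 RPM in P1.5 +/+, and 94.9 and 104 RPM in P1.5 GFP/GFP. All 4 P1.5 libraries were above all 4 E18.5 libraries, as in 7.28% of all genes, and remained so after centring, as in 16.8%. *Sgk1* rose by 1.25 (SE 0.28, 95% interval 0.61 to 1.89, adjusted p = 0.0464), or 2.38-fold. After centring the rise was 1.72 (SE 0.18, adjusted p = 0.00986), and the centred rise in GFP/GFP lungs alone was 2.14 (adjusted p = 0.0207). In log2 RPKM as deposited the changes were 1.03 in +/+ (SE 0.39, adjusted p = 0.392) and 1.47 in GFP/GFP (SE 0.39, adjusted p = 0.0607).

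The calls of *Hsd11b1* and *Sgk1* depended on which libraries were in the fit. Both were lost when either E18.5 +/+ library, E18.5 GFP/GFP replicate 1 or either P1.5 GFP/GFP library was left out, with adjusted p of 0.0537 to 0.114 for *Hsd11b1* and 0.115 to 0.179 for *Sgk1*. Leaving out 1 library at a time gave changes from −1.52 to −1.40 and from 1.04 to 1.46. A pseudocount of 1 RPKM, which is large beside the RPKM per gene span of *Sgk1*, reduced its change to 0.45 (adjusted p = 0.0624). Both calls held without either P1.5 +/+ library or without E18.5 GFP/GFP replicate 2. Without P1.5 +/+ replicate 2, 5 members were called, *Nr3c1*, *Tsc22d3* and *Cdkn1a* being the others, and all genes called rose to 7125.

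*Cdkn1a* (chromosome 17, 29090979 to 29100722, protein coding, plus strand) had 27.0 and 31.1 RPM in E18.5 +/+, 16.3 and 52.8 RPM in E18.5 GFP/GFP, 327 and 48.9 RPM in P1.5 +/+, and 113 and 126 RPM in P1.5 GFP/GFP. Its P1.5 libraries were above the E18.5 libraries of the same genotype in each case, and P1.5 +/+ replicate 2 fell between the E18.5 GFP/GFP libraries. With 2.07 (SE 0.61) it had the largest average change of the members, and it did not pass the test (adjusted p = 0.0637). Without P1.5 +/+ replicate 1 the change was 1.39 (adjusted p = 0.0868). The adjusted p was 0.0383 under a stricter filter on low values, 0.0452 without E18.5 GFP/GFP replicate 2 and 0.00593 without P1.5 +/+ replicate 2.

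*Tsc22d3* (X chromosome, 140539528 to 140600659, protein coding, minus strand) had 184 and 217 RPM in E18.5 +/+, 138 and 211 RPM in E18.5 GFP/GFP, 951 and 226 RPM in P1.5 +/+, and 209 and 195 RPM in P1.5 GFP/GFP. One library stood out: P1.5 +/+ replicate 1 was above all the others, which stayed within 138 to 226 RPM. The average change was 0.73 (SE 0.43, adjusted p = 0.230), and 0.21 without that library (adjusted p = 0.514). *Tsc22d3* is X-linked, and replicate 1 was below replicate 2 in both E18.5 groups and above it in both P1.5 groups.

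*Fkbp5* (chromosome 17, 28399095 to 28517524, protein coding, minus strand) had 95.9 and 102 RPM in E18.5 +/+, 120.1 and 122 RPM in E18.5 GFP/GFP, 172 and 50.8 RPM in P1.5 +/+, and 33.5 and 59.8 RPM in P1.5 GFP/GFP. The E18.5 pairs were tight, and after birth *Fkbp5* was above them in P1.5 +/+ replicate 1 and below them in the other 3 libraries. The changes were −0.09 in +/+ (SE 0.58, adjusted p = 0.944), −1.43 in GFP/GFP (SE 0.58, adjusted p = 0.125) and −0.76 on average (SE 0.41, adjusted p = 0.201). *Fkbp4*, the related co-chaperone that favours ligand binding, differed by 0.31 on average (SE 0.21, adjusted p = 0.281). Small annotated genes overlap *Fkbp5* on both strands, *Klf9* on its own strand and *Cdkn1a* on the opposite strand. Their reads could add to these members, those from the opposite strand only if counting ignored strand.

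*Zbtb16* (chromosome 9, 48654311 to 48835945, protein coding, minus strand) had 58.6 and 43.3 RPM in E18.5 +/+, 93.6 and 40.9 RPM in E18.5 GFP/GFP, 176 and 59.2 RPM in P1.5 +/+, and 21.7 and 3.73 RPM in P1.5 GFP/GFP. It had the widest range of the members, from 109 reads in P1.5 GFP/GFP replicate 2 to 3817 reads in P1.5 +/+ replicate 1. Both P1.5 +/+ libraries were above both E18.5 +/+ libraries (change 1.02, SE 0.90, adjusted p = 0.547), and both P1.5 GFP/GFP libraries were below both E18.5 GFP/GFP libraries (change −2.78, SE 0.90, adjusted p = 0.0808).

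*Klf9* (chromosome 19, 23141226 to 23166911, protein coding, plus strand) had 34.7 and 36.9 RPM in E18.5 +/+, 31.5 and 23.8 RPM in E18.5 GFP/GFP, 28.6 and 43.6 RPM in P1.5 +/+, and 22.9 and 7.55 RPM in P1.5 GFP/GFP. The +/+ libraries of the stages overlapped, and both P1.5 GFP/GFP libraries were the lowest of the 8. The changes were −0.02 in +/+ (SE 0.54, adjusted p = 0.985) and −1.06 in GFP/GFP (SE 0.54, adjusted p = 0.190).

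*Per1* (chromosome 11, 69095217 to 69109960, protein coding, plus strand) had 90.6 and 107 RPM in E18.5 +/+, 137 and 163 RPM in E18.5 GFP/GFP, 255 and 123 RPM in P1.5 +/+, and 234 and 44.0 RPM in P1.5 GFP/GFP. At P1.5 replicate 1 was above replicate 2 in either genotype, and the 4 P1.5 libraries spanned all the E18.5 values. The average change was 0.14 (SE 0.51, adjusted p = 0.842), and its sign depended on the scaling, since it was 0.61 after centring and −0.06 after quantile normalization. *Per1* cycles over the day, and the time of collection was not given in the sources used here.

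**Figure D2:**
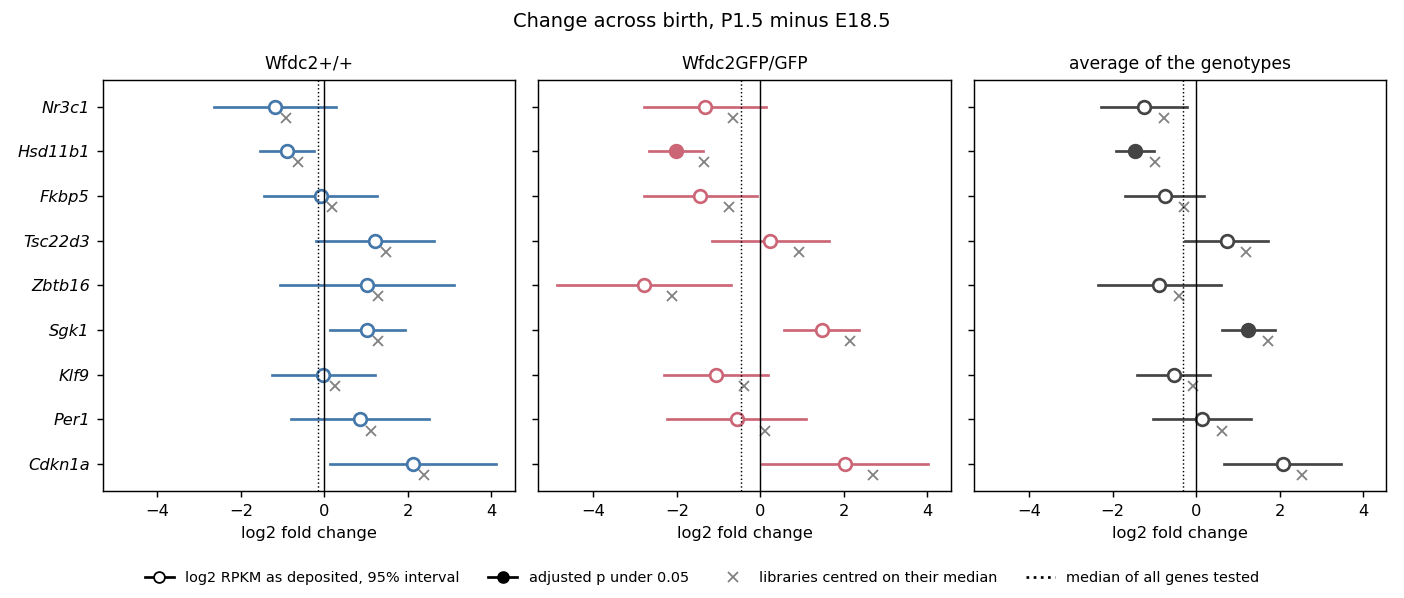
Log2 fold change of the members across birth in *Wfdc2* +/+, in *Wfdc2* GFP/GFP and averaged over the genotypes, with 95% intervals (lines), filled points for an adjusted p under 0.05, crosses for the change after centring and a dotted line at the median of all genes. The filled points are *Hsd11b1* in GFP/GFP (−2.02) and *Hsd11b1* (−1.46) and *Sgk1* (1.25) in the average.

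Within a genotype, 5 members were higher in both P1.5 than in both E18.5 libraries of +/+ mice (*Tsc22d3*, *Zbtb16*, *Sgk1*, *Per1* and *Cdkn1a*), against 27.4% of all genes, and 2 were lower (*Nr3c1* and *Hsd11b1*), against 28.2%. In GFP/GFP mice 2 were higher (*Sgk1* and *Cdkn1a*), against 18.7% of all genes, and 5 lower (*Nr3c1*, *Hsd11b1*, *Fkbp5*, *Zbtb16* and *Klf9*), against 48.5%. Only *Zbtb16* was among the higher in +/+ and the lower in GFP/GFP, as were 4.36% of all genes. In +/+ that separation was between 59.2 and 58.6 RPM, and after centring *Zbtb16* overlapped there.

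Since the replicates differed in sex pattern, the change across birth was also taken within each replicate number. *Nr3c1* changed by −2.21 and −0.14 between the +/+ libraries of replicates 1 and 2 and by −1.92 and −0.73 between the GFP/GFP libraries. *Hsd11b1* changed by −0.74 and −1.05 in +/+ and by −1.81 and −2.23 in GFP/GFP. *Sgk1* changed by 0.64 and 1.42 in +/+ and by 1.34 and 1.59 in GFP/GFP. *Cdkn1a* changed by 3.6 and 0.65 in +/+ and by 2.79 and 1.26 in GFP/GFP. These 4 members kept one direction in all 4 same-numbered pairs. That follows from their lack of overlap between the stages within either genotype, so it is no further support. The other 5 members did not keep one direction. For *Fkbp5* the values were 0.84 and −1.01 in +/+ and −1.84 and −1.03 in GFP/GFP.

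Levels were compared between members per kilobase of exon, since the deposited RPKM divide by the whole gene span (for *Sgk1* 117.72 kb, of which 4.903 kb are exons). This order takes the reads of a gene to lie in its exons, which was not tested. At E18.5 in +/+ lungs *Hsd11b1* came first with a mean of 50.01 RPM per exonic kb and *Tsc22d3* second with 46.2, and their libraries overlapped. *Nr3c1* (23.0), *Per1* (17.5) and *Fkbp5* (10.5) followed, each above the next in both libraries. Below them *Sgk1* (9.89), *Zbtb16* (9.64), *Cdkn1a* (8.18) and *Klf9* (7.43) followed, and each overlapped the next, although both libraries of *Sgk1* were above those of *Cdkn1a* and *Klf9*, and both of *Zbtb16* above those of *Klf9*. At P1.5 in GFP/GFP lungs *Tsc22d3* (46.5) was above *Cdkn1a* (33.6), *Sgk1* (20.3) was above *Hsd11b1* (13.9), *Hsd11b1* was above *Nr3c1* (8.65) and *Nr3c1* above *Fkbp5* (4.93), and *Zbtb16* came last with 2.40, overlapping *Klf9* (3.16). In P1.5 +/+ lungs no neighbouring members could be told apart. The order by gene span was different. It placed *Per1* first in both E18.5 groups, *Cdkn1a* first in both P1.5 groups and *Zbtb16* or *Sgk1* last in each group.

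Between the genotypes at P1.5, no member passed limma's test, against 0.0128% of all genes (2). *Zbtb16*, *Hsd11b1* and *Klf9* were under an unadjusted p of 0.05, against 10.9% of all genes, and limma on voom weights of the recovered reads called no member either. *Hsd11b1*, *Tsc22d3*, *Zbtb16* and *Klf9* were lower in both GFP/GFP libraries than in both +/+ libraries, which made 4 of 9 members, against 26.9% of all genes, and no member was higher in both, against 12.6%. After centring only *Zbtb16* and *Klf9* kept this arrangement, against 19.0% of all genes, and *Sgk1* was higher in both GFP/GFP libraries, against 22.3%. The differences were −3.50 for *Zbtb16* (SE 0.90, 95% interval −5.59 to −1.42, adjusted p = 0.302), −1.42 for *Klf9* (SE 0.54, adjusted p = 0.405), −1.20 for *Tsc22d3* (SE 0.61, adjusted p = 0.524) and −0.96 for *Hsd11b1* (SE 0.28, adjusted p = 0.330). With a pseudocount of 1 RPKM those of *Zbtb16* and *Klf9* were −0.60 and −0.61. The median of all genes was −0.20 in this comparison. For *Sgk1* the interval ran from −0.90 to 0.91 and for *Nr3c1* from −1.69 to 1.22, so differences of that size could not be seen with 2 libraries a group.

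The P1.5 differences depended on which +/+ library served as control. P1.5 +/+ replicate 1 was the highest of the 8 libraries for 5 of the 9 members (*Fkbp5*, *Tsc22d3*, *Zbtb16*, *Per1* and *Cdkn1a*), against 9.02% of all genes, and after centring for 6 of 9 (*Klf9* in addition), against 24.0%. P1.5 GFP/GFP replicate 2 was the lowest for 4 members (*Hsd11b1*, *Zbtb16*, *Klf9* and *Per1*), against 10.9%. Against replicate 1 alone, both GFP/GFP libraries were lower for 7 members (34.0% of all genes), and against replicate 2 alone for 6 members (63.7% of all genes, or 3 members and 34.5% after centring). With the libraries compared within replicate numbers, GFP/GFP minus +/+ was −3.02 and −3.99 for *Zbtb16*, −2.18 and −0.21 for *Tsc22d3*, −2.36 and 0.24 for *Fkbp5*, −0.32 and −2.53 for *Klf9*, and −1.53 and 1.36 for *Cdkn1a*. *Zbtb16*, *Tsc22d3* and *Klf9* were thus lower in either pair, as were *Hsd11b1* (−0.95 and −0.97) and *Per1* (−0.13 and −1.49). For all of these but *Per1* this follows from the lack of overlap at P1.5. *Nr3c1*, *Sgk1*, *Fkbp5* and *Cdkn1a* changed direction. Without +/+ replicate 1 the difference of *Zbtb16* was −2.72 (adjusted p = 0.168) and without +/+ replicate 2 it was −4.29 (adjusted p = 0.129). Without P1.5 GFP/GFP replicate 2 the difference was −2.23 for *Zbtb16* and −0.62 for *Klf9*, and without P1.5 GFP/GFP replicate 1 it was −4.77 and −2.22.

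**Figure D3:**
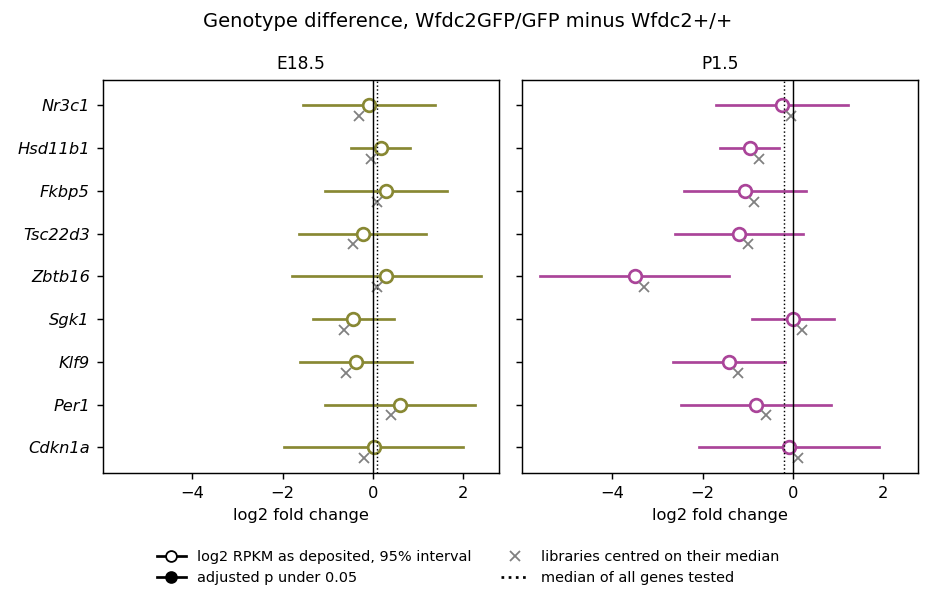
Log2 difference between *Wfdc2* GFP/GFP and *Wfdc2* +/+ lungs for the members at E18.5 and at P1.5, with 95% intervals (lines), crosses for the difference after centring and a dotted line at the median of all genes. All points are open, since no member passed an adjusted p of 0.05, and *Zbtb16* at P1.5 (−3.50) lies farthest from 0.

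The same comparison was made before birth. At E18.5 no member passed limma's test or was under an unadjusted p of 0.05, against 0.0192% (3) and 4.37% of all genes, and the differences ran from −0.43 for *Sgk1* to 0.61 for *Per1*. *Hsd11b1*, *Fkbp5* and *Per1* were higher in both GFP/GFP libraries than in both +/+ libraries, against 26.5% of all genes, and *Sgk1* and *Klf9* lower, against 9.46%. *Hsd11b1* alone of the members was above both +/+ libraries at E18.5 and below both at P1.5, as were 8.36% of all genes. After centring *Hsd11b1* and *Fkbp5* overlapped at E18.5. *Zbtb16* and *Cdkn1a* spread widely between the E18.5 GFP/GFP libraries.

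The change across birth was not shown to differ between the genotypes. None of the 9 members and none of the 15627 genes (0.0%) passed limma's test of the difference, and 1599 genes (10.2%) were under an unadjusted p of 0.05, among them *Zbtb16* and *Hsd11b1*. The differences of the changes, GFP/GFP minus +/+, were −3.80 for *Zbtb16* (SE 1.27, 95% interval −6.75 to −0.85, adjusted p = 0.362), −1.41 for *Per1* (SE 1.01, adjusted p = 0.697), −1.35 for *Fkbp5* (SE 0.82, adjusted p = 0.638) and −1.13 for *Hsd11b1* (SE 0.40, adjusted p = 0.387). The smallest was that of *Cdkn1a* with −0.10 (interval −2.91 to 2.70). The median of all genes was −0.33.

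The genes around the receptor were described by lists, read against the −0.32 by which the median gene changed. None of 9 chaperones and cofactors of the receptor passed the test across birth, against 5.14% of all genes. Their median was −0.10, *Bag1* had the largest value with 0.87, and *Hsp90ab1* the lowest with −0.37. None of 8 coregulators passed either, but all 8 had negative values, from −1.19 for the acetyltransferase *Crebbp* (adjusted p = 0.157) and −1.14 for *Ep300* (adjusted p = 0.0705) to −0.29, with a median of −0.92, or −0.45 after centring. All 8 coregulators were highest in E18.5 GFP/GFP replicate 1, against 35.0% of all genes, and 4 of them after centring, against 20.2%.

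Of 10 genes for the mineralocorticoid receptor and steroid metabolism, 7 could be tested and none passed, against 5.14% of all genes. *Cyp11a1*, which starts steroid synthesis, had 1.51 (adjusted p = 0.166) and the steroid reductase *Srd5a1* −1.03 (adjusted p = 0.0960). *Hsd11b2*, the enzyme opposed to *Hsd11b1*, stood at 0.65 to 1.34 RPM at E18.5 and at 0.74 to 3.55 RPM at P1.5 (change 0.86, SE 0.48, adjusted p = 0.214), far below *Hsd11b1*. *H6pd*, which supplies *Hsd11b1* with its cofactor, had −0.71 (adjusted p = 0.0718). The mineralocorticoid receptor *Nr3c2* had 1.70 to 4.44 RPM and did not pass the filter on low values.

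Among 32 further genes that glucocorticoids induce in various tissues, 31 were tested. Across birth 4 rose and 1 fell, against 2.58% and 2.56% of all genes, and 6 and 1 after centring, against 8.18% and 3.61%. The median was 0.32, and 0.79 after centring, against 0.15 for all genes on that scale. *Il1r2*, a decoy receptor for interleukin 1, rose by 3.93 (SE 0.69, adjusted p = 0.0327), *Lcn2*, an iron-binding acute-phase protein, by 3.19 (SE 0.56, adjusted p = 0.0327), the lipase inhibitor *Angptl4* by 2.52 (SE 0.32, adjusted p = 0.0149) and the MAP kinase phosphatase *Dusp1* by 1.62 (SE 0.25, adjusted p = 0.0247). The macrophage receptor tyrosine kinase *Mertk* fell by 1.80 (SE 0.34, adjusted p = 0.0372). *Il1r2* and *Lcn2* are abundant in neutrophils, whose marker sum was higher at P1.5, 4 of its 7 genes being called, and the part of neutrophils was not tested. No gene of the list was called without either E18.5 +/+ library or either P1.5 GFP/GFP library. Fewer were called without E18.5 GFP/GFP replicate 1, and more without P1.5 +/+ replicate 2. In each of these fits the calls among all genes moved the same way. *Scnn1a*, the epithelial sodium channel subunit on which *Sgk1* acts, had 97.6 to 260 RPM at E18.5 and 181 to 263 RPM at P1.5 (change 0.11, SE 0.31, adjusted p = 0.792).

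At P1.5 none of these 31 genes differed between genotypes under the threshold. In 14 both GFP/GFP libraries were below both +/+ libraries (26.9% of all genes), and in 2 above (12.6%). The median was −0.59, and −0.39 after centring, against −0.20 and 0.003 for all genes. Against +/+ replicate 1 alone, both GFP/GFP libraries were lower for 20 genes (34.0% of all genes), and for 22 after centring (41.9%). Against +/+ replicate 2 alone they were lower for 18 (63.7%). After centring they were lower for 9 (34.5%) and higher for 14 (42.4%). Without P1.5 +/+ replicate 1 the median was −0.48 (all genes −0.44), and without replicate 2 it was −0.96 (all genes 0.10). P1.5 +/+ replicate 1 was the highest of the 8 libraries for 13 of the 31 (9.02% of all genes), and for 19 after centring (24.0%). *Tat*, the liver enzyme tyrosine aminotransferase, was an example: it had 8.20 RPM in that library and at most 0.31 RPM in the other 7.

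**Figure D4:**
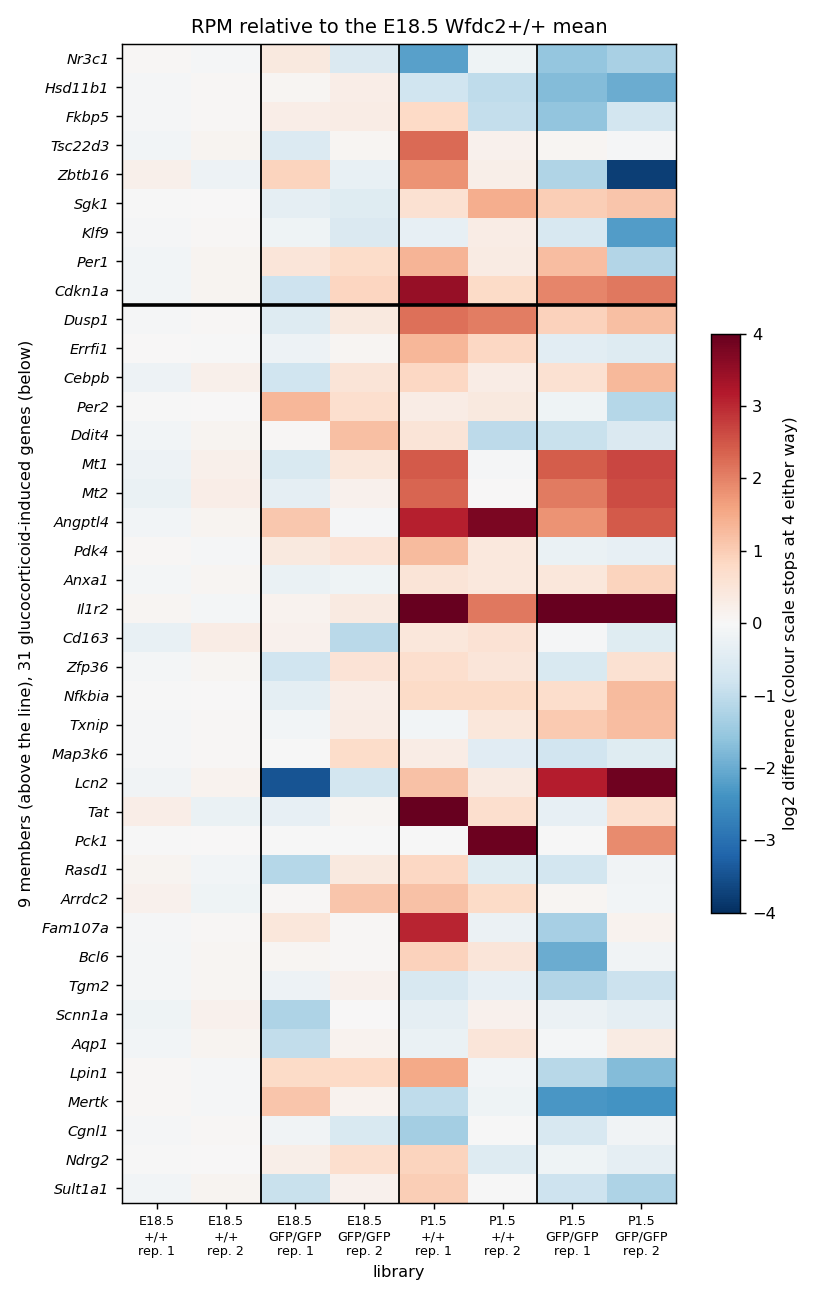
Level of the 9 members (above the line) and of 31 glucocorticoid-induced genes (below) in each library, as the log2 difference of RPM from the mean of the E18.5 +/+ libraries, red for higher and blue for lower, with values under 0.154 RPM set to it. The column of P1.5 +/+ replicate 1 is the highest for 5 members and 13 of the other genes.

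Genes that glucocorticoids repress were mixed. *Vcan*, a matrix proteoglycan of the fetal lung, had −1.32 (SE 0.89, adjusted p = 0.275) and the growth factor *Mdk* 0.64 (SE 0.58, adjusted p = 0.404), and neither was called. Of 8 inflammatory genes, 3 rose and 1 fell across birth when averaged over the genotypes, against 2.58% and 2.56% of all genes. *Il1b* rose by 4.27 (adjusted p = 0.0409), *Il6* by 3.19 (adjusted p = 0.0380), from 1 to 8 reads at E18.5, and the neutrophil protease *Mmp9* by 2.97 (adjusted p = 0.0108), while the nitric oxide synthase *Nos2* fell by 2.21 (adjusted p = 0.0380). Without P1.5 GFP/GFP replicate 2 or E18.5 +/+ replicate 1 none of these calls was made. In GFP/GFP lungs alone *Il1b*, *Cxcl1* and *Mmp9* rose, against 1.61% of all genes. The median change of the list was 3.31 in GFP/GFP and −0.04 in +/+, against −0.46 and −0.15 for all genes. In +/+ none of the 8 was called, against 0.0576% of all genes. None of the 8 passed the test of the difference between the changes. In 5 of the 8 both GFP/GFP libraries were above both +/+ libraries at P1.5, against 12.6% of all genes, and none passed that test. P1.5 GFP/GFP replicate 2 was the highest of the 8 libraries for 7 of the 8 genes, against 12.7% of all genes, and for 6 after centring, against 12.9%. The median genotype difference of the list was 2.37 with that library, against −0.20 for all genes, and 1.11 without it. It was 1.39 without P1.5 +/+ replicate 1 and 3.63 without P1.5 GFP/GFP replicate 1.

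Calls among the relatives of the targets are to be read against the 5.14% of all genes called across birth, or 11.8% after centring. No clock gene of 16 passed across birth, and after centring *Ciart* (1.87, adjusted p = 0.0339) and *Nr1d2* (1.40, adjusted p = 0.0344) did. Largest in size were *Nr1d1* with 1.69 (adjusted p = 0.0945) and *Ciart* with 1.40 (adjusted p = 0.0513), and *Per2*, the partner of *Per1*, had −0.67 (adjusted p = 0.139). *Cdkn1a* is also a target of p53, and of 13 further p53 targets tested none passed, with a median of −0.56. The largest were *Gtse1* with −2.09 (adjusted p = 0.0648) and *Plk2* with −1.29 (adjusted p = 0.0882), and after centring *Bax* (1.67, adjusted p = 0.0466) and *Aen* (1.04, adjusted p = 0.0471) passed. Among 8 Tsc22 and Krüppel-like relatives the endothelial factor *Klf2* rose by 2.02 (SE 0.38, adjusted p = 0.0370), and after centring 2 of the 8 rose. Among 10 relatives of *Sgk1*, *Fkbp5* and *Per1* tested none passed, with values from −0.85 for *Fkbp9* to 1.445 for *Fkbp2*, the latter passing after centring (1.92, adjusted p = 0.0478). Of 5 CDK inhibitors beside *Cdkn1a*, *Cdkn1c*, which encodes p57, fell by 1.09 (SE 0.24, adjusted p = 0.0451), and not after centring (adjusted p = 0.158). The calls of *Klf2* and *Cdkn1c* were lost without P1.5 +/+ replicate 1, either E18.5 +/+ library, E18.5 GFP/GFP replicate 1 or either P1.5 GFP/GFP library.

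To see which genes followed a member most closely, the profile of each over the 8 libraries was compared with all tested genes by the root mean square (RMS) difference of their log2 RPKM as deposited, each gene less its own mean. *Nr3c1* had the closest followers, *Zc4h2* (0.10), *Fbn1* (0.11) and *Galnt4* (0.12), for a spread of its own of 0.84. *Hsd11b1* was followed by *Tob2* (0.15), *Nedd4l* (0.21) and Gm15491 (0.22), *Sgk1* by *Treml2* (0.23), *Ptpre* (0.23) and *Gcnt2* (0.24), and *Cdkn1a* by *Khk* (0.23), *Rabac1* (0.27) and Gm15690 (0.29). For *Fkbp5* they were *Bnip3* (0.28), *Xdh* (0.29) and *Aqp11* (0.29), for *Tsc22d3* Gm6065 (0.21), *Hist1h2an* (0.21) and Gm4613 (0.22), for *Klf9* *Arhgap6* (0.24), *Diap2* (0.26) and *Agr3* (0.27), and for *Per1* *B3gnt4* (0.29), *Wdr54* (0.30) and *Car11* (0.38). *Zbtb16*, with a spread of 1.55, had no close follower, *Myo1a* (0.66), *Fn3k* (0.67) and 2410066E13Rik (0.71) being the nearest. Among the members themselves the nearest pair was *Hsd11b1* and *Fkbp5* (0.59), farther apart than any of them except *Zbtb16* was from its nearest genes. The libraries differed in depth and in their median. All genes share these differences in profiles of the deposited values, so closeness is a description.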

How the data were processed

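Total lung RNA was extracted with Isogen from *Wfdc2* +/+ and *Wfdc2* GFP/GFP mice at E18.5 and P1.5, 2 animals each, and directional libraries were sequenced. Per the study's methods and the submitters' processing notes, the authors called bases with CASAVA 1.8, trimmed reads with Trim Galore 0.4.0, aligned them with TopHat2 2.1.1 to mm10, counted them in SeqMonk and deposited log2 RPKM per gene, replicates unpooled. How strand was used in counting was not given in the sources used here.

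Reads were recovered from the steps between low values (99.86 to 99.97% of values whole within 0.02 of a read), and a gene without reads stood at 0.9 read. RPM were computed from them, and fold changes are the same on either scale. Genes with a mean RPKM of at least 0.05 were tested in limma 3.58.1 (R 4.3.3, prior with trend) on the deposited log2 RPKM, with one mean per group and 6 contrasts. Each library was also centred on its median. The labels give separate animals and no litter, cage or time of day, while the paper describes the +/+ animals as littermate controls. The members and the gene lists were chosen with earlier results of these data known. Named genes were all members, the list genes called or with the largest change, and the 3 nearest profiles. Scripts were tested on simulated data. Positions are those deposited, and exon lengths come from GENCODE M21.

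Same-numbered libraries deviated together between genotypes (r = 0.23 at E18.5 and 0.21 at P1.5) but not across birth within a genotype (r = −0.02 and −0.01). The main fit did not treat the numbers as pairs, also not for the genotype contrasts, and a replicate block within stage was an alternative. The limits of 3 reads cover counting error only. Alternatives were another pseudocount, filter, scaling, prior or block, voom weights on the recovered reads, each library left out and, added after the data were seen, centring joined with the block, list calls without each library and each P1.5 +/+ library as sole control.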

Additional observations from a re-analysis of the deposited data

Results flagged for a closer look

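A pair of members stood out, *Zbtb16* because its change across birth and *Hsd11b1* because its genotype difference had opposite directions. *Zbtb16* was higher at P1.5 than at E18.5 in both *Wfdc2* +/+ libraries and lower in both *Wfdc2* GFP/GFP libraries, an arrangement found in 4.36% of all genes. In +/+ the nearest libraries of the stages were at 59.2 and 58.6 RPM, and after centring they overlapped. The difference between the changes was −3.80 on the log2 scale (SE 1.27) and did not pass limma's test of the difference (adjusted p = 0.362, or 0.414 after centring). *Hsd11b1* was higher in both GFP/GFP than in both +/+ libraries at E18.5 and lower in both at P1.5, as were 8.36% of all genes. Its difference of −1.13 (SE 0.40) did not pass either (adjusted p = 0.387), and on the centred scale its libraries overlapped at both stages.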

How the results depend on the processing

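*Hsd11b1* and *Sgk1* kept the sign of their change across birth under all 20 alternatives, while the number of members called, 2 on average over the genotypes, did not hold. It was 1 with a pseudocount of 1 RPKM, with no filter, with median centring, with no trend in the prior and with the replicate block, alone or with centring (the latter added after the data were seen), 5 with the replicate block within stage, and 0 to 5 with each library left out. The replicate block called *Hsd11b1* but not *Sgk1* (adjusted p = 0.0670), and the cause was not tested. In *Wfdc2* +/+ the count of 0 ranged from 0 to 3 with a library left out. In *Wfdc2* GFP/GFP the count of 1 was 2 with quantile normalization and with voom scaled by median of ratios, 4 with the replicate block within stage and with the 4 libraries of the comparison alone, and 0 to 6 with a library left out. No setting called a member for the difference between genotypes in the change across birth, at P1.5 or at E18.5.

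All genes called across birth, 803 on average, ranged from 28 to 7125 with a library left out and from 229 to 5712 under the other settings. For +/+ alone the 9 calls ranged from 0 to 2166 and from 0 to 71, for GFP/GFP alone the 711 from 0 to 4874 and from 92 to 5523, for the P1.5 genotypes the 2 from 0 to 24 and from 0 to 21, for the E18.5 genotypes the 3 from 0 to 1 and from 0 to 22, and for the difference of changes 0 to 2 and 0.

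Some signs turned. At P1.5 the genotype difference ranged with a library left out from −1.23 to 0.76 for *Nr3c1*, from −0.42 to 0.43 for *Sgk1*, from −2.01 to 0.40 for *Per1* and from −1.46 to 1.29 for *Cdkn1a*. For *Sgk1* it was −0.000962 with a pseudocount of 0.1 RPKM and −0.012 with 1 RPKM. For *Cdkn1a* it was 0.12 after centring, with or without the replicate block, and 0.057 with voom scaled by median of ratios. The average change of *Per1* across birth was −0.061 with quantile normalization and ranged from −0.46 to 0.75 with a library left out. With a pseudocount of 1 RPKM the P1.5 difference of *Zbtb16* was −0.60 (−3.50 without it) and the change of *Sgk1* across birth 0.45 (1.25 without it).

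The fewest reads of a member in a library were 109, and what limits the calls was not tested.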
